A study of Mus musculus with 6 samples.

Results

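The pair of arrays described here comes from AE17, a mouse malignant mesothelioma cell line, and makes up 2 of the 6 arrays of the series, 1 labelled sh Ctrl and 1 labelled sh Spp1. They were chosen by the cell line label and not by any measured value. The labels give the sh Ctrl cells as wild type and the sh Spp1 cells as depleted of Spp1 by a short hairpin RNA. The other 4 arrays are the same pair in LLC, from Lewis lung carcinoma, and in MC38, a colon adenocarcinoma line. All cultures were kept in serum-containing medium (10% fetal bovine serum), and total RNA was labelled with biotin for one-colour whole-transcript arrays.

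Whether the control cells carried a control hairpin, which promoter drove the hairpin, and whether each culture was 1 clone or a pool are not given in the sources used here. The level of Spp1 was not analysed here, so the hairpin's effect on its target was not checked and every direction rests on the labels. Each AE17 value is 1 array set against 1 array. A difference between them therefore holds the hairpin, the history of the 2 cultures and the array together, and these cannot be told apart. No test is possible within AE17, and the number of arrays limits the precision of every value.

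Mesothelium is the flat cell layer that lines the pleura, peritoneum and pericardium, and its cells carry keratins together with mesenchymal genes. They descend from lateral plate mesoderm, and tumours of this layer can look epithelial or spindle-shaped. Spp1 encodes osteopontin, a secreted matrix glycoprotein that binds integrins and Cd44 and is raised in mesothelioma. Cells cultured from different body sites keep distinct patterns of Hox and other positional genes, which makes these genes useful marks of where a culture came from.

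The AE17 arrays differed from each other more than any other pair of arrays in the series. Of 16797 genes with a mean log2 intensity of 4.49 or more, which is the array values' 30th percentile, 3118 (18.6%) differed by at least 1 log2 unit, or 2-fold, between them. The same count was 579 genes (3.45%) for the LLC pair and 421 (2.51%) for the MC38 pair. The AE17 sh Ctrl array differed from the 4 arrays of the other lines in 10.6% to 14.6% of genes, and the AE17 sh Spp1 array in 13.9% to 17.8%. Each AE17 array was thus further from its partner than from any array of another line.

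Both AE17 arrays carried genes that stood apart from all 5 other arrays. On the sh Spp1 array 485 genes lay at least 1 log2 unit above every other array and 159 lay that far below. The sh Ctrl array stood above in 323 genes and below in 187. On the LLC and MC38 arrays the 2 directions together came to between 21 and 121 genes. The distance between the AE17 arrays was therefore not carried by 1 of them alone. Before normalization the median intensities were 36.3 on the AE17 sh Ctrl array and 26.6 on the sh Spp1 array, both below the 37.2 to 64.2 of the others, and the part of this in the results was not tested.

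**Figure D1:**
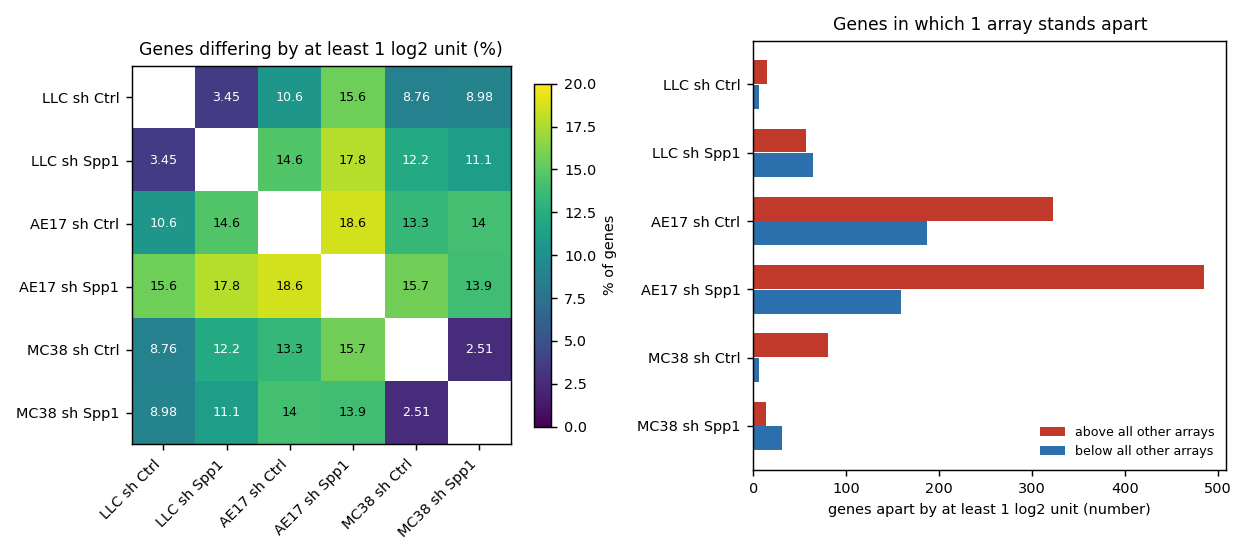
Left, the percentage of 16797 genes that differ by at least 1 log2 unit between each pair of the 6 arrays; right, the number of genes in which 1 array lies at least 1 log2 unit above (red) or below (blue) all 5 others. The AE17 pair has the highest share, 18.6%, and the AE17 arrays have the longest bars.

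In AE17 17678 genes had a level at or above 4.49 on at least 1 of the 2 arrays and were counted as measured. Of these, 1751 (9.9%) were at least 2-fold higher on the sh Spp1 array and 1540 (8.71%) at least 2-fold lower, 18.6% in either direction. The LLC pair had 1.75% higher and 1.81% lower (3.56% in either direction), and the MC38 pair 0.882% and 1.7% (2.59%). The AE17 median log2 ratio of sh Spp1 over sh Ctrl was -0.04 with an SD of 0.94 over genes. Differences of at least 3 log2 units were reached by 195 genes higher and 109 lower. The split between directions depended on the scaling: 53.2% of the genes past 2-fold were higher after quantile normalization, 43.7% in the intensities as deposited and 79.7% after centring each array on its median.

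The 1 test that the design allows asks whether the AE17 difference departed from the mean of the LLC and MC38 differences. It was fitted with limma, takes its error from the gap between LLC and MC38 on 1 residual degree of freedom, and assumes that AE17 pairs vary as theirs do. A gene past it is a gene whose AE17 difference stood apart from those of the other lines, not a gene shown to respond to the hairpin. By this test 713 of 16797 genes (4.24%) passed at an adjusted p of 0.05, 465 (2.77%) with the AE17 difference above that of the other lines and 248 (1.48%) with it below. Unadjusted p-values were under 0.05 in 3509 genes (20.9%), and the smallest adjusted p was 0.0137. In simulated data of this design more than the nominal share of calls was false, so a p near the threshold carries little weight. The simulation gave all arrays the same variance, so it did not probe the assumption on AE17 pairs. In what follows, "passed" refers to this test, and adjusted p-values are from limma.

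The genes furthest above on the sh Spp1 array were led by secreted matrix proteins. Tnc (Entrez 21923), which encodes the matrix glycoprotein tenascin C, had a log2 intensity of 5.34 on the sh Ctrl and 11.26 on the sh Spp1 array, a log2 ratio of 5.92. It lay between 5.38 and 6.82 on the 4 arrays of LLC and MC38, so the sh Spp1 array was the high one. The AE17 difference exceeded that of the other lines by 5.97 ± 0.34 log2 units (SE, adjusted p = 0.0137). Lox (Entrez 16948), the enzyme that crosslinks collagen and elastin, had 6.15 and 11.14 in AE17 and 4.24 to 5.27 elsewhere, with the sh Spp1 array again alone at the top. Col1a1 (Entrez 12842), the alpha 1 chain of type I collagen, had 6.87 and 11.96 in AE17, 5.28 and 5.83 in LLC, and 8.7 and 9.35 in MC38.

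Fn1 (Entrez 14268), which encodes fibronectin, showed the opposite layout. It stood at 6.57 on the AE17 sh Ctrl array and 12.09 on the sh Spp1 array, a 45.7-fold difference. The other lines had 12.46 to 12.91, so here the sh Ctrl array was the one that stood apart, and the sh Spp1 array lay near the other lines. Foxf1 (Entrez 15227), a transcription factor of splanchnic mesoderm, was laid out in the same way, with 5.11 and 9.97 in AE17 and 8.4 to 10.36 elsewhere. Of the 20 genes with the highest ratios, 14 had a sh Spp1 array at least 1 log2 unit above all arrays of the other lines. In 7 the sh Ctrl array lay at least that far below them all, and 3 met both conditions.

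The other genes among the 20 highest had log2 ratios from 4.43 to 5.5. They included Socs2, a feedback inhibitor of cytokine signalling (4.22 and 9.71), the Wnt receptor Fzd2 (4.64 and 9.67) and the surface glycoprotein Cd24a (6.62 and 11.26). Tspan6, a tetraspanin, had 5.32 and 10.43. Pcdh7 and Tenm3 are adhesion molecules, Slit2 is a guidance cue, Gpc4 is a cell surface proteoglycan, Pmp22 is a membrane protein known from myelin, and Marcks is a substrate of protein kinase C. The list is completed by the histone gene H2bc12, Ccdc80, Dynap, Mboat1 and Zfhx4. Of these 20, 19 passed, and Zfhx4 did not (adjusted p = 0.0597). The test uses the same AE17 ratio that picked these genes, so the count of passes is no separate support. In 16 of the 20 genes, Tnc among them, the dimmer array lay at or below 5.83. That is the top of the range of lymphocyte markers that these lines should lack. The dimmer array also lay there in 17 of the 20 lowest. Background signal can set such levels, so the size of these ratios is approximate. Socs2 and Ccdc80 have a dimmer probe set each, which gave 1.1 and 0.92 in place of 5.5 and 4.75, while the dimmer one of Cd24a gave 4.07.

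The lowest ratio among the genes ranked belonged to Kcnma1 (Entrez 16531), the pore-forming subunit of a calcium-activated potassium channel. Its level was 13.22 on the AE17 sh Ctrl array and 5.71 on the sh Spp1 array, against 12.88 to 13.35 on the 4 others. The sh Spp1 array thus stood alone below the other 5 by more than 7 log2 units. A second probe set of the gene was dim on both AE17 arrays, at 4.16 and 4.01, and showed a ratio of -0.15, so the difference rests on 1 probe set. Aim2 (Entrez 383619), a sensor of cytosolic DNA, also stood apart on the sh Spp1 array alone, at 4.05 against 9.38 on the sh Ctrl array and 8.58 to 9.16 elsewhere. Slfn3, a Schlafen family gene, had 8.45 and 3.96 in AE17 and 7.85 to 8.89 elsewhere.

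In another set of genes the AE17 sh Ctrl array shared its level with 1 of the other lines and the sh Spp1 array with the other. Nxf3 (Entrez 245610), an X-linked relative of the mRNA export factor Nxf1, had 9.69 and 3.17 in AE17, 10.28 and 10.29 in LLC, and 3.48 and 3.64 in MC38. Rhox5, an X-linked homeobox gene of the reproductive tract, had 10.8 and 5.95 in AE17, 10.28 and 10.4 in LLC, and 6.33 and 6.3 in MC38. Adm, which encodes the vasodilator peptide adrenomedullin, had 9.51 and 4.74 in AE17, 8.61 and 8.66 in LLC, and 4.74 and 4.49 in MC38. Mmp2, a matrix-degrading protease, had 11.76 and 6.09 in AE17, 5.54 and 4.81 in LLC, and 11.5 and 10.46 in MC38. Crip1 (Entrez 12925), a LIM domain protein, had this layout only in part, with 12.11 and 5.44 in AE17, 7.41 and 5.54 in LLC, and 11.0 and 11.19 in MC38. Its level on the AE17 sh Spp1 array matched the LLC sh Spp1 array alone, and its LLC ratio was -1.87.

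Other genes were high on the AE17 sh Ctrl array and low on all 5 others. Timp4, an inhibitor of matrix proteases, had 8.73 there and 3.66 to 4.59 elsewhere. Prph, which encodes the neuronal intermediate filament peripherin, had 9.92 there and 5.04 to 5.47 elsewhere. Wfdc15a and the secreted phospholipase Pla2g5 had the same layout, at 10.46 and 10.0 on that array and at most 5.83 and 5.34 on the others. The 20 lowest are completed by the platelet chemokine gene Ppbp, Zfp985, Cped1, Pcbd1, Dppa2, C1s2, Krt8 and Ccdc38. Of the 20, 15 passed, Ppbp, Pcbd1 and Dppa2 did not (adjusted p = 0.0791, 0.0676 and 0.0732), and Zfp985 and C1s2 were too dim on average to be tested. The 20 lowest too were picked by the ratio that the test uses, so the count of passes is no separate support. In Cped1 a dimmer probe set gave -1.34 in place of -5.45.

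**Figure D2:**
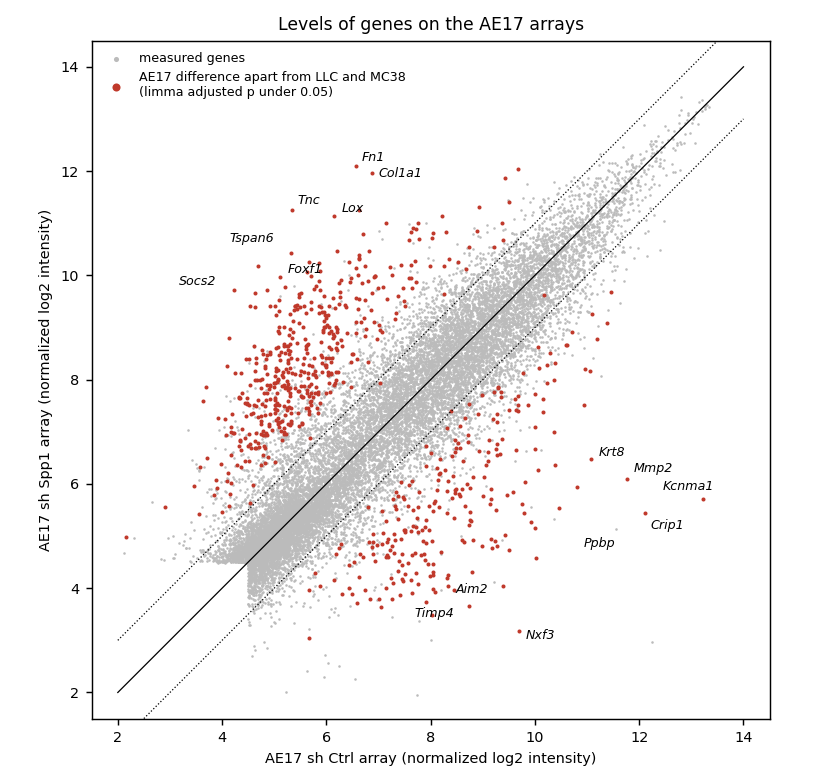
Normalized log2 intensity of each gene measured in AE17 on the sh Ctrl array (horizontal) and the sh Spp1 array (vertical); the solid line marks equal levels, the dotted lines 1 log2 unit, and red points the genes that passed the test across lines. Fn1, Col1a1 and Tnc lie far above the line, and Kcnma1, Crip1 and Nxf3 far below it.

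The mesothelial label was checked against 24 mesothelial genes, of which 22 were measured. The defining surface marker Msln (Entrez 56047), mesothelin, had 5.13 and 5.34 on the AE17 sh Ctrl and sh Spp1 arrays, 5.01 and 4.49 in LLC, and 9.87 and 9.96 in MC38. Wt1, a transcription factor of mesothelium, had 5.83 and 5.64 in AE17 and 5.23 to 5.71 elsewhere. Upk3b, a uroplakin found on mesothelium, had 5.77 and 5.58, and the calcium-binding protein gene Calb2 and the mucin gene Muc16 lay under the brightness minimum on all 6 arrays. By these markers neither AE17 array was set apart as mesothelial from the other lines, and Msln was brighter in MC38.

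Other genes of the mesothelial list were present on the AE17 arrays. Cav1, the coat protein of caveolae, had 10.67 and 9.83 in AE17 and 9.71 to 10.34 elsewhere. Podxl, a surface sialomucin, had 8.07 and 8.74 in AE17, 7.74 and 8.51 in LLC, and 6.19 and 5.54 in MC38. Neither gene set AE17 apart from LLC. At least 2-fold higher on the sh Spp1 array were 5 of the 22, against 9.9% of all measured genes, and 1 was lower. Gata6, a mesodermal transcription factor, had 4.77 and 7.53 in AE17 and 6.79 to 8.02 elsewhere, and passed (adjusted p = 0.0441). Pdpn, which encodes podoplanin of mesothelium and lymphatic vessels, had 6.99 and 9.75 in AE17, 5.3 and 4.5 in LLC, and 9.7 and 9.63 in MC38 (adjusted p = 0.0241). Tbx18, Lrrn4 and Gata4 had ratios of 1.18, 1.14 and 1.01 and Bnc1 one of -1.21, and none of these passed. The list's median ratio was 0.21, with all genes at -0.04, but in the values as deposited it was -0.02 relative to all genes.

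Fibroblast and mesenchymal genes lay apart in both directions. Of 23 measured, 7 (30.4%) were at least 2-fold higher and 5 (21.7%) lower on the sh Spp1 array, above the 9.9% and 8.71% of all genes on both sides, and the median was -0.11. Cdh2, N-cadherin, had 5.88 and 9.72 in AE17 and 4.94 to 8.68 elsewhere (adjusted p = 0.0215). Pdgfrb, a PDGF receptor, had 7.62 and 10.84 (adjusted p = 0.0351), while Pdgfra, its relative, had 10.11 and 8.97 (adjusted p = 0.324). Prrx2 had 6.72 and 9.19 and passed, and its relative Prrx1, also a mesenchymal homeobox gene, had 11.19 and 9.65 and did not (adjusted p = 0.196). The 4 list genes that passed were Cdh2, Pdgfrb, Prrx2 and Fap, a protease of activated fibroblasts.

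Epithelial keratin 8 marked the sh Ctrl array. Krt8 (Entrez 16691) had 11.08 on the AE17 sh Ctrl and 6.47 on the sh Spp1 array, 8.88 and 8.31 in LLC, and 6.69 and 7.14 in MC38 (adjusted p = 0.0177). Its usual filament partner Krt18 had 5.01 and 4.67 in AE17 and 8.75 and 9.62 in LLC. Epcam, the surface protein of simple epithelia, lay under the brightness minimum on both AE17 arrays, and Cdh1, E-cadherin, had 5.73 and 5.88. Of 23 measured simple epithelial genes 0 were at least 2-fold higher and 2 (8.7%, against 8.71% of all genes) lower, Krt8 and the transcription factor Ovol1, and the median was 0.02. Krt20, a keratin of intestinal epithelium, had 6.83 and 3.79 in AE17 and 4.28 to 4.61 elsewhere (adjusted p = 0.0211). Jup, plakoglobin of cell junctions, had 6.11 and 9.37 in AE17, 6.1 and 6.11 in LLC, and 8.6 and 9.75 in MC38 (adjusted p = 0.0613).

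Single genes of muscle, vessel and neural lineages lay far apart on the AE17 arrays, in both directions. Actc1, cardiac actin, had 9.24 on the sh Ctrl array and 4.39 to 4.9 on the 5 others (adjusted p = 0.014), whereas Pax3, a transcription factor of muscle precursors and neural crest, had 5.33 and 7.16. Among 17 measured endothelial genes 4 (23.5%) were lower and 1 (5.88%) higher, against 8.71% and 9.9% of all genes, and the median was -0.39. Eng, a co-receptor for TGF-beta, had 9.46 and 5.78 in AE17, 9.37 and 10.0 in LLC, and 5.67 and 5.82 in MC38 (adjusted p = 0.0147). Esam, an endothelial adhesion molecule, had 6.93 on the sh Ctrl array and 4.53 to 4.95 elsewhere (adjusted p = 0.0273). Flt1, a receptor for VEGF, went the other way, with 5.65 and 8.68 (adjusted p = 0.0491). Pecam1, CD31 of endothelium and blood cells, had 6.76 and 5.25, and Mmrn2 had 6.11 and 4.97 (adjusted p = 0.0584 and 0.136). The endothelial markers Cdh5, Kdr and Tie1 lay between 4.82 and 5.6 on both AE17 arrays.

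Ncam1, a neural adhesion molecule, had 6.28 and 9.92 in AE17, 7.64 and 5.73 in LLC, and 9.29 and 8.18 in MC38 (adjusted p = 0.014). Erbb3, a receptor of Schwann cell precursors and epithelia, had 8.48 on the AE17 sh Ctrl array and 5.9 to 6.73 elsewhere (adjusted p = 0.0214). Map2 and Uchl1, both neuronal genes, had ratios of 2.08 and 2.3 and passed. They were the only 2 of 12 measured neuronal genes (16.7%) at least 2-fold higher, against 9.9% of all genes. Lower was 1 (8.33%, near the 8.71% of all), Tubb3 with a ratio of -1.79. The neuronal median was -0.15, with 5 of the 12 above 0. Of 10 measured genes of neural crest and glia 2 were higher and 1 lower, with a median of -0.18. Smooth muscle genes were split, with Myl9 at 6.92 and 9.1 (adjusted p = 0.0329) and Cnn1, calponin, at 7.26 and 5.46 (adjusted p = 0.0934). The 9 measured melanocyte genes included 0 past 2-fold in either direction, against 18.6% of all genes.

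Most markers of leukocytes were low on both arrays. Ptprc, the pan-leukocyte marker CD45, was under the brightness minimum on all 6 arrays, and 12 lymphocyte markers, which these lines should lack, spanned 3.19 to 5.83 on the AE17 arrays. That span serves as a rough reading of background, since probes differ in efficiency and their levels cannot be ordered against each other. Above it lay 3 of 18 macrophage markers on the sh Ctrl array and 2 on the sh Spp1 array, and the markers' summed linear intensity was 949 and 1077. Cd68, a lysosomal protein of macrophages that other cells also hold, had 7.31 and 8.71, and Cd14, a receptor for bacterial lipopolysaccharide, 6.38 and 7.42 (adjusted p = 0.349 and 0.242). Lyz2, lysozyme of macrophages, had 7.5 on the sh Ctrl array and 4.34 to 5.12 elsewhere (adjusted p = 0.0325). For endothelium 5 of 19 markers lay above the span on the sh Ctrl array and 2 on the sh Spp1 array, with summed intensities of 1672 and 1023. The part of other cell types in the AE17 difference was not tested.

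**Figure D3:**
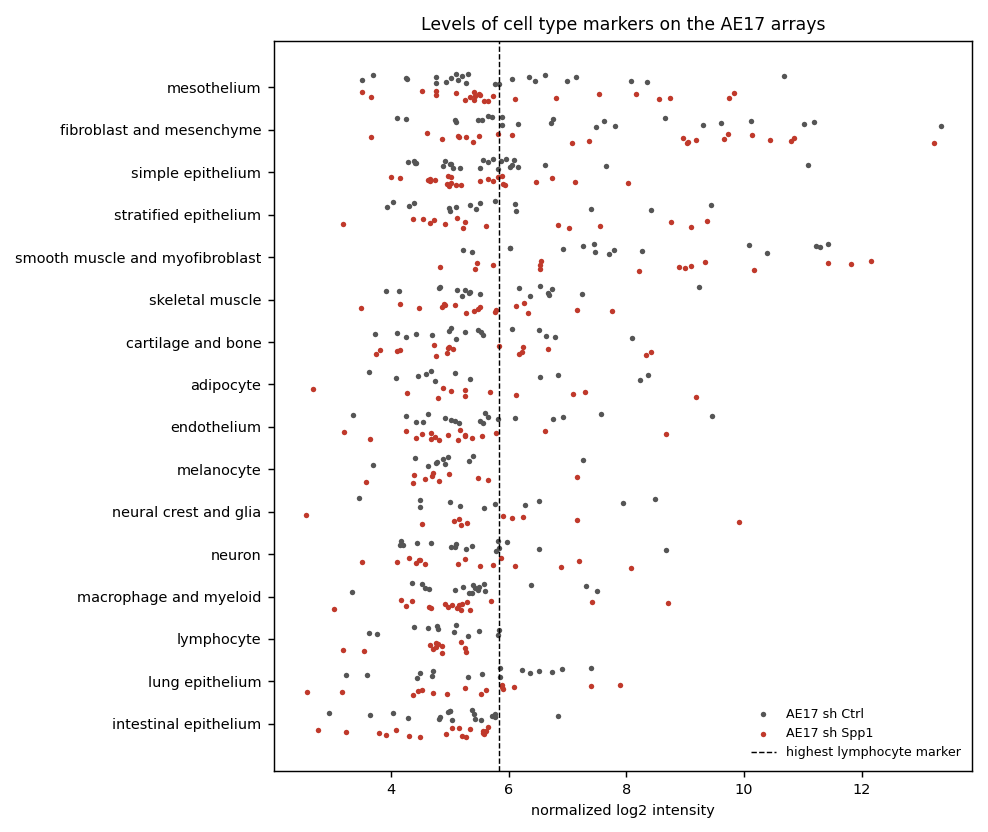
Normalized log2 intensity of each marker of 16 cell types on the AE17 sh Ctrl (grey) and sh Spp1 (red) arrays, 1 point per gene with a small vertical offset; the dashed line is the highest lymphocyte marker, 5.83. Levels of different genes are not comparable; between the arrays, 1 intestinal marker lies above the line on the sh Ctrl array and 0 on the sh Spp1 array.

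Hox genes, which encode homeodomain factors that give cells their place along the body axis, separated the AE17 arrays by cluster. Of 9 measured Hoxc genes 7 were at least 2-fold higher on the sh Spp1 array, with a median ratio of 1.87, and Hoxc6 and Hoxc12 lay under 2-fold. In the Hoxb cluster 5 of 9 were higher, in Hoxa 1 of 9, and in Hoxd 2 of 8 were lower. Of all 35 measured Hox genes 13 (37.1%) were at least 2-fold higher and 2 (5.71%) lower, against 9.9% and 8.71% of all genes. The Hox median ratio was 0.5 in AE17, 0.0 in LLC and 0.15 in MC38. The AE17 median was between 0.41 and 0.78 above that of all genes under every scaling and filter tried. Past the test were 4 above and 2 below of 36 tested, where 2.77% and 1.48% of all tested genes passed.

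Hoxc10 (Entrez 209448), a posterior gene of hindlimb and lower trunk, had 5.31 and 8.55 in AE17, 5.16 and 4.49 in LLC, and 8.34 and 8.19 in MC38 (adjusted p = 0.0169). Hoxc9 had 4.32 and 7.65 in AE17, 4.37 and 4.77 in LLC, and 7.4 and 7.3 in MC38 (adjusted p = 0.0189). In both genes the sh Ctrl array lay with LLC and the sh Spp1 array with MC38. Hoxc8 repeated this with 5.13 and 7.01 (adjusted p = 0.0491), and Hoxc11 with 4.41 and 7.37, although it did not pass (adjusted p = 0.0741). In the same cluster Hoxc6 had 8.1 and 8.33 in AE17 and Hoxc12 5.57 and 5.07.

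Hoxd10 (Entrez 15430) had 8.56 and 5.77 in AE17, 7.73 and 8.46 in LLC, and 5.15 and 5.33 in MC38 (adjusted p = 0.0197). Hoxd9 followed with 7.24 and 4.2 in AE17, 6.57 and 7.48 in LLC, and 4.3 and 4.21 in MC38 (adjusted p = 0.0279). For these posterior Hoxd genes too, the sh Ctrl array matched LLC and the sh Spp1 array MC38. In the Hoxa cluster only Hoxa13, the most posterior, was past 2-fold, with 5.82 and 7.45 (adjusted p = 0.0335). In the Hoxb cluster Hoxb3, Hoxb5, Hoxb6, Hoxb7 and Hoxb9 had ratios of 1.1 to 1.3, and none of these passed.

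**Figure D4:**
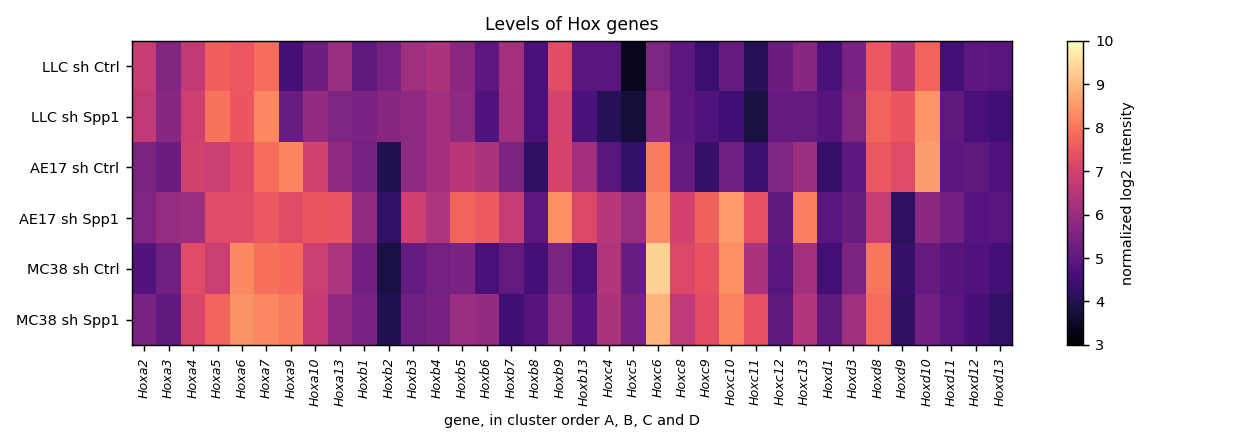
Normalized log2 intensity of 36 Hox genes (columns, in order within clusters A to D) on the 6 arrays, from dark (low) to light (high). From Hoxc8 to Hoxc11 the AE17 sh Spp1 row is bright like the MC38 rows, and at Hoxd9 and Hoxd10 the AE17 sh Ctrl row is bright like the LLC rows.

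Among other transcription factors of mesoderm and body position, more were higher than lower on the sh Spp1 array. Of 45 measured 14 (31.1%) were at least 2-fold higher and 3 (6.67%) lower, against 9.9% and 8.71% of all genes. Another 28 lay under 2-fold. The median ratio was 0.2, and relative to all genes it was down to 0.07 in the values as deposited. The 7 that passed were all above. Besides Foxf1 and Gata6 they were Foxd1, of kidney stroma (4.78 and 8.5), Tbx20, of heart (5.2 and 8.52), Emx2, of the urogenital tract and forebrain (4.66 and 7.49), Eya1 (6.63 and 9.55) and Osr1, of intermediate mesoderm (6.06 and 8.63). Their layouts across lines differed. Foxd1 and Tbx20 lay between 4.08 and 4.54 on the arrays of the other lines, so the sh Spp1 array was alone, whereas Eya1 and Osr1 had 8.91 to 10.76 and 9.35 to 10.51 there, with the sh Ctrl array alone and low. Emx2 matched LLC on the sh Ctrl array and MC38, at 7.47 and 7.17, on the sh Spp1 array. The lower genes were Tbx4, Hand1 and Nkx2-5, with ratios of -1.68, -1.26 and -1.01, none of which passed.

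Xist, the RNA that coats the inactive X chromosome, had 7.7 on the AE17 sh Ctrl and 10.27 on the sh Spp1 array (adjusted p = 0.0215). It stood at 11.98 and 11.83 in LLC and at 4.89 and 4.24 in MC38, so both AE17 arrays lay between those lines. The Y-linked genes Eif2s3y, Kdm5d, Uty, Zfy2 and Usp9y were under the brightness minimum on all 6 arrays. Sry, also Y-linked, had 5.14 and 6.36 in AE17, a ratio of 1.22, and 5.79 to 5.96 elsewhere, and did not pass. These levels lie around the top of the range of lymphocyte markers, 5.83, and background signal can set them. The Y-linked genes Ddx3y and Zfy1 of the list had no probe set with 1 symbol.

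Among 18 measured imprinted and oncofetal genes 2 (11.1%) were at least 2-fold higher and 3 (16.7%) lower, not far from the 9.9% and 8.71% of all genes, and 13 lay under 2-fold. Sgce, an imprinted gene for a sarcoglycan, had 9.15 and 4.94 in AE17, 8.65 and 8.83 in LLC, and 4.76 and 4.79 in MC38 (adjusted p = 0.0137). Its imprinted neighbour Peg10, derived from a retrotransposon, had 8.44 and 6.22 in AE17, 8.24 and 7.61 in LLC, and 6.11 and 6.06 in MC38, and did not pass (adjusted p = 0.065). Mest, another imprinted gene, had 7.64 and 4.63 in AE17, 6.64 and 8.19 in LLC, and 4.6 and 4.93 in MC38 (adjusted p = 0.0265). In all 3 the sh Spp1 array lay at the level of MC38. Igf2bp3, an oncofetal RNA-binding protein, had 5.34 and 8.8 (adjusted p = 0.0162), and Plagl1, an imprinted zinc finger gene, had 4.9 and 7.12 (adjusted p = 0.0338).

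Of 20 measured tumour suppressors and oncogenes 4 were at least 2-fold higher, against 9.9% of all genes, and 2 (10.0%) lower, near the 8.71% of all. Rb1, the retinoblastoma protein that holds back S phase entry, had 9.36 and 6.86 in AE17 and 8.41 to 9.36 elsewhere, with the sh Spp1 array alone and low (adjusted p = 0.0204). Egfr, the receptor for epidermal growth factor, had 6.29 and 8.76 in AE17, 9.16 and 8.55 in LLC, and 5.47 and 4.93 in MC38 (adjusted p = 0.0177). Met, the receptor for hepatocyte growth factor, had 9.68 and 12.04 in AE17 and 8.94 to 9.62 elsewhere (adjusted p = 0.0268). Cdkn2c and Cdkn2b, inhibitors of cyclin-dependent kinases, had ratios of 1.74 and 1.17 and did not pass.

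Matrix genes were the group with the most members past the test. Of 44 measured matrix glycoproteins and proteoglycans 23 (52.3%) were at least 2-fold higher on the sh Spp1 array, against 9.9% of all genes. Lower were 4 (9.09%), near the 8.71% of all. Of 41 tested, 12 passed above and 2 below, where 2.77% and 1.48% of all tested genes did. The list's median ratio was 1.05 in AE17, -0.07 in LLC and 0.06 in MC38. Fbn2, a fibrillin of elastic microfibrils, had 4.66 and 8.31 in AE17 and 4.39 to 4.54 elsewhere (adjusted p = 0.0153). The thrombospondins Thbs1 and Thbs2, which bind matrix and growth factors, had 7.76 and 11.01, and 5.71 and 9.98. Fbln5 and Loxl1, both needed for elastic fibres, had 5.44 and 9.36, and 5.5 and 9.39, and MC38 had 7.89 to 8.69 for them. Sparcl1, a secreted relative of Sparc, was the largest exception, at 8.66 on the sh Ctrl array and 4.01 to 5.57 elsewhere (adjusted p = 0.0361).

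Of 41 measured collagen genes 8 (19.5%) were at least 2-fold higher and 0 lower, against 9.9% and 8.71% of all genes. The test was passed by 6, but the median was only 0.05, so most of the family lay close to equal. The fibrillar chains Col1a1 and Col3a1 passed, with Col3a1 at 7.47 and 9.76. Col6a1 and Col6a2, chains of beaded filaments, had 7.98 and 10.18, and 6.4 and 8.89. Col8a1 had 6.27 and 9.58 in AE17 and 8.85 to 10.48 elsewhere, and Col12a1, a collagen on the surface of fibrils, had 5.85 and 10.24 in AE17 and 4.6 to 5.09 elsewhere. Col8a1 thus stood apart on the sh Ctrl array and Col12a1 on the sh Spp1 array.

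Surface receptors for matrix and neighbouring cells followed. Of 24 measured integrins 6 (25.0%) were at least 2-fold higher and 2 (8.33%) lower, against 9.9% and 8.71% of all genes, and the median was -0.01. Itga11, which binds fibrillar collagen, had 5.62 and 8.51 in AE17 and 4.85 to 5.26 elsewhere (adjusted p = 0.0204), and Itga8 and Itga7 passed with ratios of 2.11 and 2.03. Itgb2, the leukocyte integrin beta chain, had 7.7 and 5.21 (adjusted p = 0.0876). Of 26 measured cadherins 6 (23.1%) were higher and 1 (3.85%) lower. Cdh2, Pcdh7 and Pcdh18 passed, of 24 tested, where 2.77% of all tested genes passed above. Of 18 ephrins and Eph receptors, which signal at cell contacts, 9 were higher and 0 lower, with a median of 0.89. Efna5 (5.38 and 9.34), Ephb3 (6.18 and 8.61) and Efna4 (6.48 and 8.34) passed.

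Targets of TGF-beta signalling were higher on the sh Spp1 array as a list. Of 19 measured 11 (57.9%) were at least 2-fold higher and 1 (5.26%) lower, against 9.9% and 8.71% of all genes. The median was 1.22 in AE17, -0.06 in LLC and 0.06 in MC38. The list shares Thbs1 and Tgfbi with the matrix genes, Itgav with the integrins, Cdkn2b with the tumour suppressors and Ccn2 with the YAP targets. Ldlrad4, which restrains the pathway's receptors, had 5.11 and 8.37 (adjusted p = 0.0137), Pmepa1, another feedback inhibitor, 6.05 and 8.9 (adjusted p = 0.0258), and Ccn2, a matricellular growth factor, 6.08 and 8.94 (adjusted p = 0.0185). Id2, an inhibitor of differentiation, was the lower one, at 11.4 and 9.34 (adjusted p = 0.0895). Among the ligands, Tgfb1 had 8.05 and 10.81 in AE17 and 8.91 to 9.42 elsewhere (adjusted p = 0.0254), and Tgfb3 had 8.36 and 10.31 (adjusted p = 0.0418). Of 21 targets of YAP and TEAD, which respond to cell spreading and tension, 10 (47.6%) were higher and 1 (4.76%) lower. The medians were 0.66, 0.27 and 0.33 in AE17, LLC and MC38, and 3 targets passed.

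**Figure D5:**
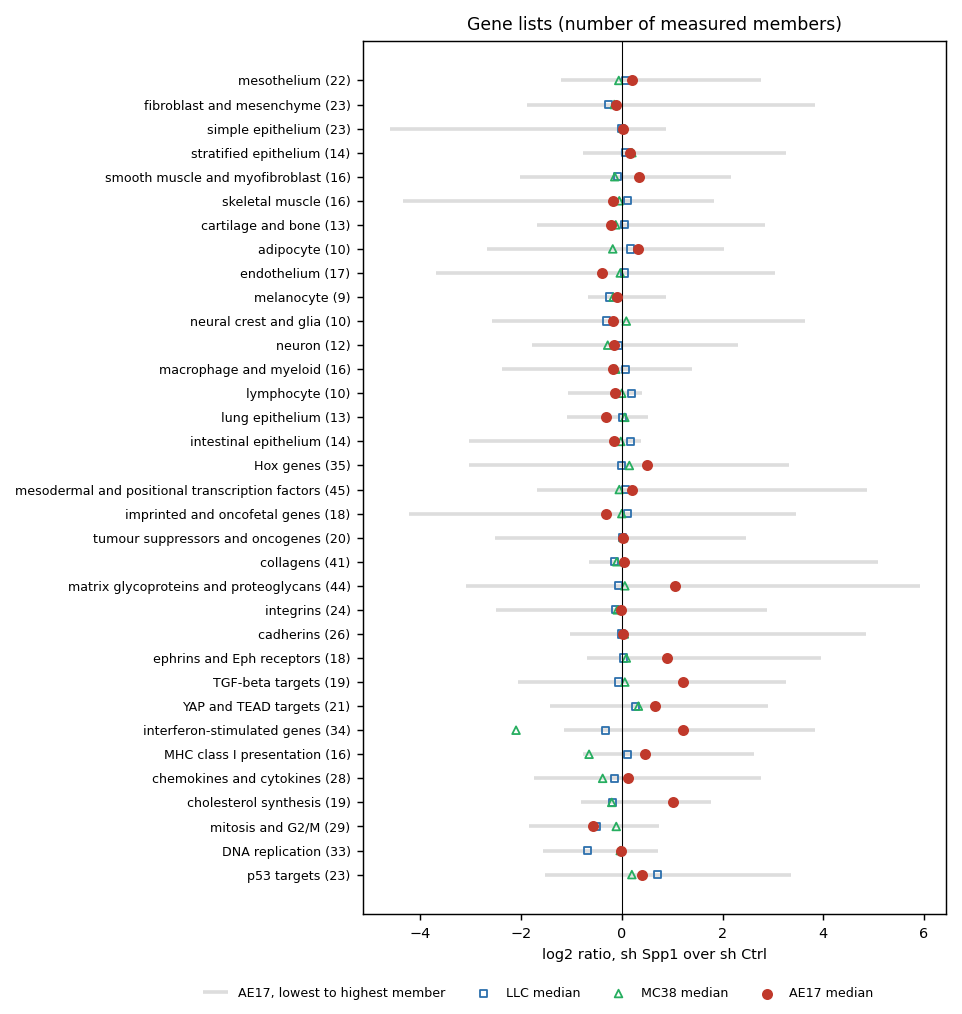
Log2 ratio of sh Spp1 over sh Ctrl for 34 gene lists (the sex chromosome list, with 2 measured members, is left out), with the number of measured members in brackets: red points are the AE17 medians, grey bars run from the lowest to the highest AE17 member, and blue squares and green triangles are the LLC and MC38 medians. TGF-beta targets and interferon-stimulated genes have the highest AE17 medians of the lists plotted, both 1.22, and the MC38 median of the interferon list lies at -2.1.

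Interferon-stimulated genes, which cells switch on after sensing viral nucleic acid or interferon, were higher on the AE17 sh Spp1 array. Of 34 measured, 20 (58.8%) were at least 2-fold higher and 2 (5.88%) lower, against 9.9% and 8.71% of all genes. The median ratio was 1.22. The MC38 median was -2.1 and the LLC median -0.33, so the sign differed between lines, and the contrast of AE17 with the mean of the others includes the negative MC38 ratios. Of the 34, 4 passed, all above, where 2.77% of all tested genes did. Cmpk2, a mitochondrial nucleotide kinase, had 7.0 and 10.85 in AE17 and 10.4 and 7.71 in MC38 (adjusted p = 0.0515). Rsad2, the antiviral enzyme viperin, had 7.62 and 10.2 in AE17, 11.33 and 8.89 in MC38, and 5.46 and 4.83 in LLC (adjusted p = 0.0492). Ifit1, which binds viral RNA, had 6.8 and 9.42 in AE17, 10.83 and 9.15 in MC38, and 4.8 and 4.73 in LLC (adjusted p = 0.0576).

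Besides Rsad2, those that passed were the RNA sensor Ifih1 (6.75 and 8.83), Lgals3bp (8.88 and 10.86) and Parp12 (9.39 and 10.67). Isg15, a ubiquitin-like modifier, had 5.21 and 6.87 (adjusted p = 0.118). The 2 lower genes were Herc6, at 9.58 and 8.46, and Samd9l, at 7.18 and 6.03. Of 16 measured genes of MHC class I presentation, which interferon also raises, 6 (37.5%) were higher and 0 lower, against 9.9% and 8.71% of all genes. H2-K1 had 9.81 and 11.16 and H2-Q4 had 5.21 and 7.84 (adjusted p = 0.0162). H2 genes are near-identical copies, so signal can be shared between them.

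Promoter sequences of 4 genes of this list are shown because they hold the kind of sequence that interferon-activated factors bind, 3 in genes higher on the sh Spp1 array and 1 in a gene that was not. They come from RefSeq on build GRCm38.p6 and run from 250 bases before to 50 after the gene's start, with each match on either strand to GAAA, any 2 bases and GAAA again in capitals (on the other strand it reads TTTC, 2 bases and TTTC). Ifit1 is at chr19:34640639-34640938 on the plus strand, and Rsad2 (chr12:26456403-26456702), Isg15 (chr4:156200769-156201068) and Trim30a (chr7:104465144-104465443) are on the minus strand.
Ifit1: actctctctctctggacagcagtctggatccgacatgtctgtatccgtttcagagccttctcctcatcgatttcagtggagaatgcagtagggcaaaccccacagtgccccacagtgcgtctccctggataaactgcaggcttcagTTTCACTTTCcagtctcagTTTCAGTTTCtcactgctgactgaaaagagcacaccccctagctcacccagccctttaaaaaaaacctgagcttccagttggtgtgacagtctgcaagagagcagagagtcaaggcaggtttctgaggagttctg
Rsad2: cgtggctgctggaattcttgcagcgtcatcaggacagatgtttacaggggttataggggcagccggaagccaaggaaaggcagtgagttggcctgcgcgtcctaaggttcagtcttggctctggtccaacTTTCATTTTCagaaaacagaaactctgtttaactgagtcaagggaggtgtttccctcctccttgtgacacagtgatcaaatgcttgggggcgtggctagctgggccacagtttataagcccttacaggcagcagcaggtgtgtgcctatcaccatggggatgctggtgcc
Isg15: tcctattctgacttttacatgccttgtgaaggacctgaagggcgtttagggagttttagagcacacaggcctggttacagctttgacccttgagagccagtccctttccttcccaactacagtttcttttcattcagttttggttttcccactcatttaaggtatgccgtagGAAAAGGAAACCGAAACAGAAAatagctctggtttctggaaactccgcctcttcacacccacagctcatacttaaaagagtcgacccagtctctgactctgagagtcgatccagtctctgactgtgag
Trim30a: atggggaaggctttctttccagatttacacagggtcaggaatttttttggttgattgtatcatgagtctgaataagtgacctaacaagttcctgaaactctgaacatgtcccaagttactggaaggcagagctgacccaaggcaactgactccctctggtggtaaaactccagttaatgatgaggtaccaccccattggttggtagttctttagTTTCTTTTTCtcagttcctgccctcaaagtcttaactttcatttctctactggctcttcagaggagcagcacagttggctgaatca

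The matches in Ifit1 begin 104 and 85 bases before the start, that in Rsad2 120 and that in Trim30a 36, and in Isg15 3 overlapping matches begin 78, 72 and 66 bases before it. The motif was found in 11 of the 26 list genes that had a promoter in the table (42.3%), against 1079 of all 27025 genes with a promoter (3.99%) and 1131 of all 32851 promoters of the same length (3.44%). Its presence did not sort the list by AE17 ratio: the 10 measured genes with it had a median of 0.93 and the 13 without it 1.18. Trim30a, which holds it, had a ratio of -0.96.

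Chemokine and cytokine genes differed in both directions, with a median of 0.12. Of 28 measured 10 (35.7%) were higher and 3 (10.7%) lower, against 9.9% and 8.71% of all genes. Ccl5, which draws T cells, had 7.17 and 9.54 in AE17 and 11.02 and 9.57 in MC38 (adjusted p = 0.0413), and Cxcl14 had 5.45 and 7.36 (adjusted p = 0.0376). Cxcl10, an interferon-induced chemokine, had 6.21 and 8.52 in AE17 and 11.37 and 8.03 in MC38 (adjusted p = 0.189). The lower ones were Ccl2, Cxcl1 and Cxcl5, with ratios of -1.28, -1.75 and -1.19. These 3 were also lower in LLC, at -3.19, -1.29 and -4.07, and in MC38, at -1.98, -1.57 and -0.21.

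Genes of cholesterol synthesis were higher on the sh Spp1 array as a list. Of 19 measured 11 (57.9%) were at least 2-fold higher and 0 lower, against 9.9% and 8.71% of all genes. The ratios ran from -0.82 for Stard4, a sterol carrier, to 1.78 for Srebf2. The median was 1.01 in AE17, -0.19 in LLC and -0.2 in MC38. The differences were small next to those of the matrix genes, and only Nsdhl passed, at 9.22 and 10.54 (adjusted p = 0.0402). Lss, which closes the sterol rings, had 7.66 and 9.32, Mvk, mevalonate kinase, 7.06 and 8.58, and Srebf2, the pathway's transcription factor, 8.95 and 10.73 (adjusted p = 0.0698, 0.0516 and 0.0867). The promoter of Hmgcs1, which encodes the synthase that makes HMG-CoA, is shown because it was the only 1 of 16 list promoters with TCACNCCAC, a form of the sterol response element. It lies at chr13:119690101-119690400 on the plus strand (GRCm38.p6, RefSeq), with the match in capitals.
Hmgcs1: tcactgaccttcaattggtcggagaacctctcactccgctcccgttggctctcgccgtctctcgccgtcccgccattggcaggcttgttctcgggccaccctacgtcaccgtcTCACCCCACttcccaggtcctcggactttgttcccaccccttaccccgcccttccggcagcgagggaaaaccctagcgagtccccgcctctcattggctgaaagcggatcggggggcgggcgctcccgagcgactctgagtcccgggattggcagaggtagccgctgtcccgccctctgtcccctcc

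The match begins 137 bases before the start, and 1.24% of all promoters hold the motif on 1 of the strands. Hmgcs1 had 9.41 and 10.42 in AE17, a ratio of 1.01, and the 14 measured list genes without the motif had a median of 1.05.

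Genes of mitosis were lower on the sh Spp1 array in AE17 and LLC alike. Of 29 measured 0 were at least 2-fold higher and 8 (27.6%) lower in AE17, against 9.9% and 8.71% of all genes. The medians were -0.58, -0.5 and -0.11 in AE17, LLC and MC38, and 0 of the 29 passed. The kinetochore gene Cenpf had 9.62 and 7.78 (adjusted p = 0.0732) and Top2a, topoisomerase II, 11.52 and 9.91, while Cdc20 and Plk1 had ratios of 0.74 and 0.65. DNA replication genes had a median of -0.01 in AE17 and -0.68 in LLC. In AE17 3 of 33 (9.09%) were lower, near the 8.71% of all genes, and 0 higher. Of 23 p53 targets 8 were higher and 3 lower, with a median of 0.4 against 0.71 in LLC, and 0 passed. Plk2, a stress-induced kinase, had 5.31 and 8.68 in AE17 (adjusted p = 0.134), and Cdkn1a, the p21 inhibitor of cyclin-dependent kinases, 10.12 and 11.33 (adjusted p = 0.401).

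Neighbouring genes were compared as a measure of differences that cover stretches of a chromosome. Over 324 blocks of 50 genes in chromosome order (RefSeq, GRCm38.p6), the AE17 median relative to all genes ran from -0.72, in the block from Klhl28 to Trmt5 with 10 of 50 genes above the median of all, to 0.58, in the block from Mroh6 to Rpl8 with 40 of 50 above it. In LLC the medians ran from -0.21 to 0.2 and in MC38 from -0.33 to 0.25. Blocks at least 0.3 from 0 numbered 57 in AE17, 0 in LLC and 2 in MC38. The SD of the block medians was 0.21, 0.08 and 0.09 in AE17, LLC and MC38, and the SD of single genes was 0.93, 0.45 and 0.42. Block medians were thus 2.68 and 2.28 times as wide in AE17 as in LLC and MC38, and single genes 2.06 and 2.21 times. At a limit of at least 0.2 from 0, the longest run on 1 side was 10 neighbouring AE17 blocks from Tg to Hoxc5. It was picked out after the values were seen. Its blocks lay between 0.21 and 0.58 in AE17, -0.04 to 0.09 in LLC and -0.12 to 0.19 in MC38. The run holds 8 of the Hoxc genes. Runs of 4 blocks lay, among others, from Tceanc2 to Col8a2 and from Ndufb6 to Gm5860 above and from Nptn to Me1 below. The longest runs were 1 block in LLC and 3 in MC38 at the same limit of 0.2. These lengths depend on the limit. In MC38 all neighbouring blocks from Cdk6 to Nsun5 lay below 0, between -0.33 and -0.03, with some inside the limit. One-sided stretches were therefore not particular to AE17. DNA copy number was not analysed here.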

How the data were processed

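Each array has 1 linear intensity per probe set in the authors' deposited table, which holds 41345 probe sets. RMA appears in the submitters' processing notes and GeneSpring GX 12.5 in the design text, and how they were applied to these deposited intensities is not stated. The array medians differed. Intensities were log2 transformed and quantile normalized over all 6 arrays with limma 3.58.1 in R 4.3.3. Background could not be corrected again from these values, so dim genes keep compressed ratios.

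Genes came from the platform annotation: 23521 probe sets had 1 symbol, 1814 several and 16010 none, and 23328 of those with 1 symbol matched RefSeq (GRCm38.p6) by Entrez ID. Only probe sets with 1 symbol were used, and the brightest stood for its gene, which gave 22180 genes. Genes at or above the 30th percentile (log2 4.49) on at least 1 AE17 array were counted at a 2-fold difference. With a mean at or above it, 16797 genes entered limma (lmFit and eBayes, line as block, 1 residual and 4.42 prior degrees of freedom), with Benjamini-Hochberg adjustment at 0.05. Tested on simulated data of this design, the fit recovered most genes changed by 3 log2 units and few changed by 2, and its share of false calls was above the nominal 0.05. The adjusted p-values are therefore too small, by an amount that the simulation cannot give. It gave all 6 arrays the same variance, so it did not probe whether AE17 pairs vary as the others do. The SD of the log2 ratios over genes was 0.93 in AE17, 0.45 in LLC and 0.42 in MC38.

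The genes named are the 20 highest and 20 lowest AE17 ratios, the 12 with the smallest p in each direction, and members of 35 lists. The rankings by ratio and p passed over clone names, predicted genes, Rik names, microRNAs and small nucleolar RNAs. Symbols that begin with Rn were passed over as well, so the rankings hold among the remaining genes. The comparison and the lists were chosen with earlier results of these data known. Genes described for their layout across lines were picked from these after their values were seen, and how often each layout occurs was not counted. Mmp2 and Egfr had the reverse of the layout in which the sh Ctrl array lay with LLC and the sh Spp1 array with MC38. Alternatives changed the scaling, the minimum, the thresholds, a pseudocount, the choice of probe set and the variance prior. Figures were drawn with matplotlib 3.10.9.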

Additional observations from a re-analysis of the deposited data

Results flagged for a closer look

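The results given here set the AE17 difference against the mean of the LLC and MC38 differences by limma (adjusted p 0.05). The genes are the 12 with the smallest p in each direction, after clone names, predicted genes and the other names given above were passed over. Some genes that passed had larger departures but also a larger p, such as Crip1 at -5.83 and H2bc12 at 5.46, and are not among them. The test assumes that the AE17 pair, with 1 array a side, varies like the other pairs, and it cannot separate the hairpin from the history of the cultures. Above the other lines were 465 genes and below them 248.

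Among the matrix genes with these smallest p, the AE17 log2 difference exceeded that of the other lines by 5.97 for Tnc and 5.69 for Col1a1. It did so by 5.18 for Fn1, 4.74 for Col12a1 and 4.53 for Ccdc80. For the surface genes Pcdh7, Tspan6, Fzd2 and Cd24a the excess was 5.42, 5.31, 5.19 and 4.93. It was 5.0 for the transcription factor gene Foxf1, 5.07 for the interferon-inducible gene Mndal and 4.57 for the cytokine gene Il24.

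In the other direction the departure was -7.59 for Kcnma1, which rests on 1 of its 2 probe sets, -6.6 for Nxf3 and -5.78 for Aim2. It was -5.18 for Wfdc15a, -4.99 for Cped1, and -4.89 for both Rhox5 and Timp4. Mmp2, Adm and Ccdc38 had -4.79, -4.68 and -4.65, and Prph and Calcb, which encodes a calcitonin gene-related peptide, both had -4.47.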

How the results depend on the processing

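For the 40 genes with the highest and lowest AE17 ratios, 175 recomputed ratios moved by less than 1.5-fold, 25 by more and 0 changed sign. Averaging the probe sets of a gene could move only Socs2, Ccdc80, Cd24a, Kcnma1 and Cped1, since the rest have no other probe set. All of these but Cd24a moved, Kcnma1 from -7.5 to -3.83. Genes picked for extreme ratios could hardly change sign. The counts past 2-fold moved most. Centring each array on its median gave 3362 higher and 854 lower, a threshold of 1.5 log2 units gave 931 and 612, and one of 2 gave 545 and 292. The counts past limma's test were 253 above and 141 below with a pseudocount of 16, of which 252 and 138 were among the genes passing without it. They were 261 and 123 with the minimum at the 50th percentile, where fewer genes are tested and all of these also passed at the 30th, and 839 and 628 at an adjusted p of 0.1. For the pseudocount the cause was not tested. Relative to all genes, the list medians ran from 1.1 to 1.52 for interferon-stimulated genes, 1.15 to 1.44 for TGF-beta targets, 1.0 to 1.41 for matrix glycoproteins, -0.02 to 0.46 for mesothelium and -0.57 to -0.21 for mitosis. The sex chromosome list moved from 1.93, with 2 genes, to 0.01 without a minimum, where the dim Y-linked genes enter.

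With 1 array a side, signal near background limits the folds of dim genes, and leaving out a replicate is not possible. Without LLC or MC38 no residual degree of freedom remains, so the test could not be fitted. The fit pairs the arrays of each line through the block. No paired analysis was possible beyond that, because the labels give no replicate numbers.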
